A study of Mus musculus with 36 samples.

Results

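The loss of the enzyme that writes N6-methyladenosine (m6A) and the loss of a nuclear protein that reads it were compared gene by gene in mouse embryonic stem cells (mES cells). The 24 libraries with METTL3 or YTHDC1 as the degraded protein were used, out of 36 in the series, 12 from each line, of which 6 had dTAG-13 and 6 had not. For each of 14312 genes with enough reads, a response was estimated in each line as the log2 fold change of read counts with dTAG-13 (dTAG) over counts without it (Ctrl). The difference between both responses was then tested itself, so that a gene is described as responding to one loss only where the lines differ and not merely where one of them misses a threshold.

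Both lines derive from iXist-ChrX mES cells of a Castaneus x 129S background, in which a TetOn promoter drives Xist from one X chromosome and a Bgl stem loop sits in Xist exon 7. In clone 12D METTL3 carries the FKBP12 F36V degron and in clone Y12H YTHDC1 carries it, so each line is 1 clone. All groups received doxycycline at 1 µg/ml for 20 h and then during a pulse of 500 µM 4-thiouridine (4sU) for 4 h, a uridine analogue that marks new RNA. The 0 min libraries were taken at the end of the pulse and the others 90 or 180 min into a chase, for which uridine at 50 mM was given, with 2 replicates of each combination. The dTAG arm also received dTAG-13, which brings the tagged protein to degradation, from 2 h before doxycycline. No untagged line with dTAG-13 was analysed here, so an effect of the compound itself cannot be told apart from a response that both lines share. By the study's methods, wells of a biological replicate came from one batch of cells and were allotted to the conditions at random. The 12 libraries of a line thus come from at most 2 batches, the chase libraries of a replicate and arm are not independent of each other, and p-values measure the spread between these wells.

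In mammalian cells a nuclear complex methylates adenosines in RNA during transcription. METTL3 is its catalytic subunit, METTL14 binds the RNA with it, and WTAP, VIRMA, RBM15, ZC3H13 and CBLL1 belong to the regulatory part. Sites lie mostly in a short motif around the sequence GGACT and are dense in long internal exons and around stop codons. Reader proteins then bind the mark. YTHDC1 is the reader of the nucleus and acts in splicing, export and the silencing of chromatin-associated RNA, whereas the YTHDF proteins read m6A in the cytoplasm, where the mark shortens the life of many messages. In mES cells m6A is known for limiting the transcripts of pluripotency and developmental regulators.

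Windows of the annotated transcripts show the motif in genes on which the comparison turns. Each run is 25 bases of the reference transcript, written 5′ to 3′ from GENCODE M21 on GRCm38 (mm10), with the 5 bases of the motif in capitals, and no methylation was measured in these data. The windows of Wtap and Bmp4, whose RNA was called as rising with METTL3 loss only, lie in the 3′ UTR. That of Nxt1, called likewise, lies in the coding sequence and ends within the stop codon. The window of Dusp4, which rose in both lines, crosses the coding end. That of Rnf157, which fell with YTHDC1 loss only, lies in the 3′ UTR.
Wtap, chr17:12975050-12975074, minus strand: tgatgccgtcGGACTattccgaaga
Bmp4, chr14:46383720-46383744, minus strand: ccctatagctGGACTtttatcttaa
Nxt1, chr2:148675738-148675762, plus strand: tccggttccaGGACTgggccagcta
Dusp4, chr8:34818773-34818797, plus strand: ccagctgttaGGACTcgtctctgga
Rnf157, chr11:116338593-116338617, minus strand: caagactcgtGGACTtcctactcac

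The libraries held 9547507 to 18652000 reads assigned to genes. Libraries of the same line and chase time deviated with their replicate number, with correlations of 0.597 to 0.759 between the arms, and the replicate was therefore a term of the model. The 8 ES cell markers summed to 2326 to 3498 counts-per-million units (CPM) over all 24 libraries. The 12 feeder fibroblast markers reached 308.6 to 1136 CPM, nearly all of it from Fn1 and Vim. Without this pair the sum was 8.74 to 39.1, and Col3a1, Dcn, Lum and Postn together stayed between 0.124 and 1.61 CPM.

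More genes passed the threshold with loss of the writer than with loss of the nuclear reader. In the METTL3 line 7775 of 14312 genes passed the threshold (edgeR adjusted p under 0.05), 54.3% of those tested, with 3880 higher (27.1%) and 3895 lower (27.2%) in dTAG. In the YTHDC1 line 2436 genes did (17%), with 1142 higher (7.98%) and 1294 lower (9.04%). The changes were also larger in the METTL3 line, where called genes had a median size of 0.46 on the log2 scale and 870 passed 2-fold, against 0.39 and 110 genes. The difference between the responses passed the threshold in 5694 genes, 39.8% of those tested, with the METTL3 response above the YTHDC1 response in 2883 (20.1%) and below it in 2811 (19.6%).

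Genes were grouped by the 3 tests. Of the genes called in both lines, 918 moved in the same direction (6.41% of those tested) and 594 in opposite directions (4.15%). Another 4041 genes responded to METTL3 loss only (28.2%), meaning that the METTL3 response and the difference passed the threshold and the YTHDC1 response did not. The reverse pattern was found in 529 genes (3.7%). A further 2617 genes passed in 1 line without a called difference and cannot be assigned to either kind, and 321 had a called difference alone. Seen from the reader, 37.68% of the 2436 genes called in the YTHDC1 line changed in the same direction in the METTL3 line, 24.38% changed in the opposite direction, 21.72% did not respond to METTL3 loss in this sense and 16.22% were unassigned. Seen from the writer, 11.81% of the 7775 genes were shared in direction, 7.64% were opposite and 51.97% responded to METTL3 loss only. Over all genes tested, 27.1% rose and 27.2% fell with METTL3 loss, and 7.98% rose and 9.04% fell with YTHDC1 loss. Against these shares, the same-direction shares of 37.68% and 11.81% lie above and the opposite shares of 24.38% and 7.64% lie slightly below.

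These counts depend on how the libraries are taken as replicates. With the 3 chase libraries of a replicate and arm summed, 2 against 2 per line, 256 genes were shared, 101 opposite, 2818 METTL3-only and 175 YTHDC1-only. Without the replicate as a block the counts were 227, 114, 2011 and 155. All 227 shared genes of the fit without the block, and 250 of those in the summed fit, were among the 918. Leaving out YTHDC1 replicate 1 or 2 left 611 or 528 called genes in that line and 248 or 232 shared genes.

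**Figure D1:**
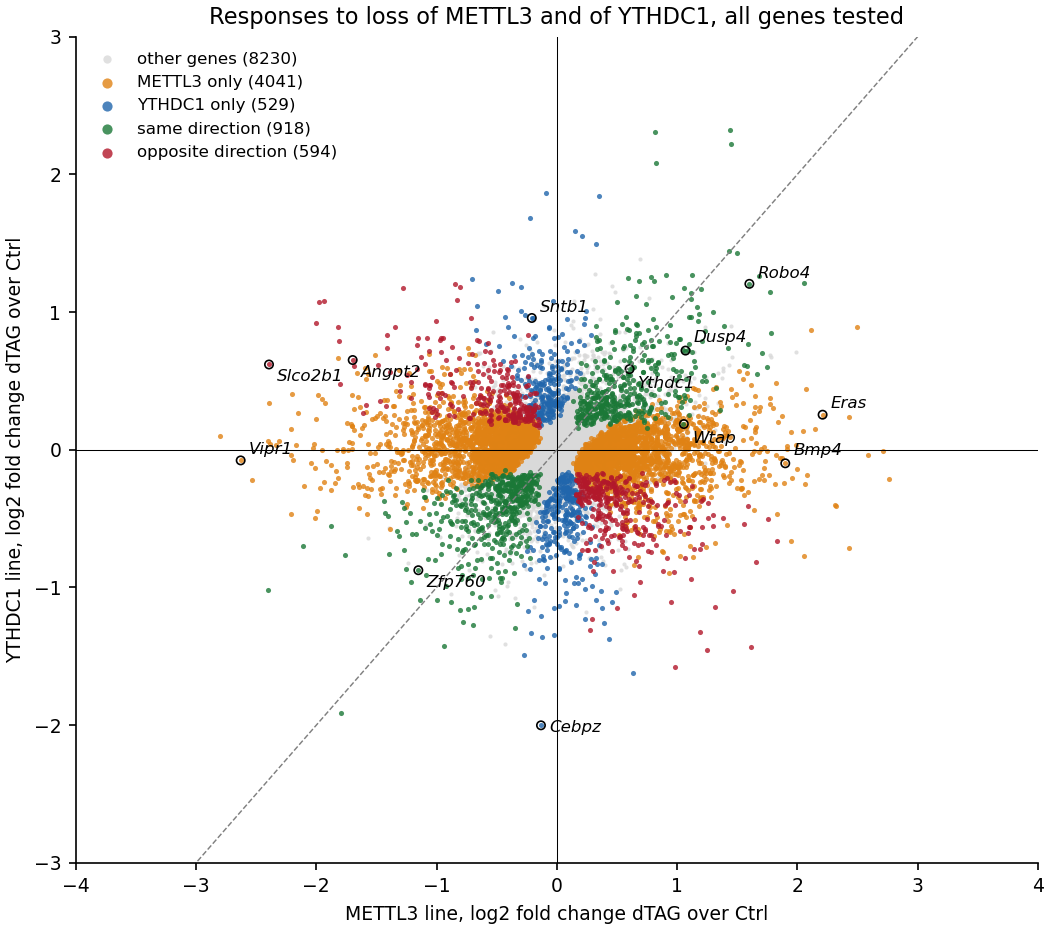
Each point is 1 of the 14312 genes, with the log2 fold change of dTAG over Ctrl in the METTL3 line on the x axis and in the YTHDC1 line on the y axis. Colours mark the 918 genes called in the same direction, the 594 called in opposite directions, the 4041 METTL3-only and the 529 YTHDC1-only genes, the dashed line marks equal responses, and 1 gene lies beyond the axes. The cloud is wider along the METTL3 axis, and the same-direction genes lie around the dashed line.

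Across genes, the METTL3 response ran almost independently of the YTHDC1 response, with a Pearson r of 0.0948 and a Spearman rho of 0.104 over 14312 genes, which are not independent replicates. Responses of both replicates within a line had r of 0.730 for METTL3 loss and 0.651 for YTHDC1 loss, and between lines r ran from 0.0328 to 0.156. The METTL3 response differed between its replicates in 1523 genes and changed sign in 884 of them, whereas no gene passed that edgeR test in the YTHDC1 line, where 341 had an unadjusted p under 0.05, and replicate signs among the shared and METTL3-only genes were mostly equal. Of the 918 shared genes, 907 had the same sign in both METTL3 replicates. Such agreement follows largely from calling the response over both replicates, here and among the METTL3-only genes.

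Among the 918 shared genes, 433 rose and 485 fell in both lines. For 709 of them the difference between lines did not pass the threshold. For 510 of these its 95% interval lay within 0.5 of zero on the log2 scale, which an uncalled difference favours. Over all 14312 genes 5271 had such an interval. The sizes differed in the other 209, of which 173 moved more in the METTL3 line and 36 more in the YTHDC1 line. Of the 8 shared rises and 8 shared falls with the largest smaller change, all moved in 6 of 6 pairs of Ctrl and dTAG libraries of both lines, since the ranking required it.

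Ggact (ENSMUSG00000041625, chromosome 14, 122816223 to 122913757, mm10), an enzyme that breaks down cross-links left from transglutaminase, showed nearly the same rise in both lines. Among the 6 METTL3 Ctrl libraries its lowest, median and highest levels were 14.31, 15.9 and 17.24 CPM, and with dTAG-13 they were 26.27, 30.34 and 32.98 CPM. The YTHDC1 line went from 13.89, 18.25 and 19.67 CPM to 26.29, 30.87 and 35.33 CPM. Every dTAG library lay above every Ctrl library in each line. The responses were 0.92 (SE 0.07) and 0.82 (SE 0.07) on the log2 scale, and their difference of 0.10 had a 95% interval from -0.12 to 0.31. Ggact overlaps a gene on the opposite strand, and whether strand entered the counting is not given in the sources used here.

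The other shared rises of the ranking covered a receptor, enzymes and a transporter. Robo4, a guidance receptor of endothelial cells, rose by 1.60 (SE 0.17) in the METTL3 and 1.21 (SE 0.17) in the YTHDC1 line, from medians of 2.494 and 2.672 CPM in Ctrl to 7.379 and 7.161 CPM in dTAG. Acot1, an acyl-CoA thioesterase with closely similar family members, rose by 0.80 (SE 0.07) and 0.95 (SE 0.07). Htra1, a secreted serine protease, rose by 0.79 (SE 0.07) and 0.80 (SE 0.07), and the difference of -0.01 had an interval from -0.21 to 0.20. Il18bp, which binds interleukin-18, and Gimap9, an immune GTPase, rose by 0.85 and 0.80 in the METTL3 and 0.79 and 0.75 in the YTHDC1 line. The amino acid transporter Slc1a4 (1.21 against 0.79) and Rwdd3 (1.42 against 0.74), which promotes SUMO conjugation, rose in both but more in the METTL3 line, with edgeR adjusted p of 0.017 and 0.00678 for the difference. Gimap9 left the shared class without YTHDC1 replicate 2.

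Acp2 (ENSMUSG00000002103, chromosome 2, 91202885 to 91214098), a lysosomal acid phosphatase, fell alike in both lines. The lowest, median and highest METTL3 libraries were at 19.41, 20.94 and 25.55 CPM without and at 9.766, 12.47 and 14.38 CPM with dTAG-13. For YTHDC1 the values were 19.3, 21.16 and 26.51 CPM without and 10.21, 11.08 and 13.59 CPM with it. No library of one arm reached the range of the other arm in either line. The responses were -0.79 (SE 0.09) and -0.91 (SE 0.09), with a difference of 0.12 (95% interval -0.13 to 0.37), and another gene overlaps Acp2 on the opposite strand.

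Zfp760, a zinc finger gene, fell most in the METTL3 line among the ranked shared falls, by 1.15 on the log2 scale. With YTHDC1 loss it fell by 0.87. The kinase anchor Akap5 (-1.07 and -0.80) and the polo-like kinase Plk5 (-0.97 and -0.75) fell by sizes whose difference did not pass the threshold. So did Zfp324 (-0.77 and -0.72), Smim10l1 (-0.74 and -0.68) and Klhl5 (-0.68 and -0.68). Plk5 left the shared class without YTHDC1 replicate 2. For Klhl5 the difference of 0.00 had an interval from -0.35 to 0.36.

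Ythdc1 itself (ENSMUSG00000035851, chromosome 5, 86804221 to 86836659) rose in both lines. METTL3 Ctrl libraries had 217.7, 236.4 and 296.6 CPM as lowest, median and highest level, and METTL3 dTAG libraries had 318.1, 369.6 and 452 CPM. YTHDC1 Ctrl libraries had 158.8, 258.6 and 303.5 CPM, and YTHDC1 dTAG libraries had 329.5, 365 and 405.6 CPM. The arms did not overlap in either line. The sizes, 0.60 (SE 0.09) and 0.59 (SE 0.09), differed by 0.02 with an interval from -0.25 to 0.29. The degron acts on protein, so these values do not show the loss of YTHDC1, and Mettl3 RNA did not pass the threshold in either line (0.02 and 0.10).

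Genes that rose or fell with METTL3 loss only were the largest group, with 2024 higher and 2017 lower. In 3368 of the 4041 the 95% interval of the YTHDC1 response lay within 0.5 of zero on the log2 scale. A change of that size in the YTHDC1 line lies outside the interval for them. The same held for 9983 of all 14312 genes, and a class without a called YTHDC1 response favours it. The ranked examples were drawn from 1209 rises and 1221 falls that met this bound and moved alike in all 6 METTL3 pairs.

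Wtap (ENSMUSG00000060475, chromosome 17, 12966796 to 12994169), the adaptor of the writer complex, rose in the METTL3 line. There the lowest, median and highest levels were 111, 144 and 201.9 CPM in Ctrl against 238.2, 314.3 and 423.7 CPM in dTAG. The corresponding YTHDC1 levels were 119.4, 158.8 and 204 CPM against 151.7, 179.8 and 211.2 CPM. The arms lay apart in the METTL3 line and overlapped in the YTHDC1 line. The METTL3 response was 1.06 (SE 0.08), the YTHDC1 response 0.19 (95% interval 0.02 to 0.36, edgeR adjusted p 0.122) and the difference 0.87 (edgeR adjusted p 9.82e-07). Wtap kept its class in all 16 alternative fits.

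Bmp4 (ENSMUSG00000021835, chromosome 14, 46383520 to 46390669), a secreted signal that patterns the early embryo and sustains self-renewal in culture, headed the METTL3-only rises. Its METTL3 Ctrl libraries ran from 4.849 to 11.1 CPM around a median of 7.692, and its METTL3 dTAG libraries from 12.09 to 63.76 CPM around 30.34. Its YTHDC1 libraries ran from 6.479 to 16.22 CPM around 11.57 in Ctrl and from 7.391 to 14.5 CPM around 9.244 in dTAG. Thus each dTAG library exceeded each Ctrl library with METTL3 lost, and both arms covered one range with YTHDC1 lost. The responses were 1.90 (SE 0.18) and -0.10 (SE 0.19), with an edgeR adjusted p of 3.27e-06 for the difference of 2.00. An opposite-strand gene overlaps Bmp4.

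Several METTL3-only rises encode small housekeeping factors. Ndufaf1, an assembly factor of respiratory complex I, rose from a median of 40.49 to 127.6 CPM with METTL3 loss, while the YTHDC1 arms had medians of 35.16 and 35.12 CPM. Its responses were 1.64 (SE 0.08) and -0.01 (SE 0.08). Mrpl43, a protein of the mitochondrial ribosome, rose by 1.51 (SE 0.07) in the METTL3 line. Lsm10, a subunit of the particle that processes histone messages, rose by 1.55 (SE 0.10). Nxt1, a cofactor of the main mRNA export receptor, rose by 1.53 (SE 0.11) and stood at -0.28 (edgeR adjusted p 0.0768) in the YTHDC1 line. The mesoderm and endoderm regulator Eomes rose by 1.82 (SE 0.14), the glutathione enzyme Ggt1 by 1.44 (SE 0.12) and Eva1b by 1.68 (SE 0.15). The YTHDC1 responses of the 8 ranked METTL3-only rises, which the class and the ranking kept small, ran from -0.28 to -0.01.

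Vipr1, the receptor of vasoactive intestinal peptide, fell most among the ranked METTL3-only genes. In METTL3 Ctrl libraries it stood at 7.312 to 18.2 CPM (median 13.54), and in METTL3 dTAG libraries at 1.252 to 3.959 CPM (median 1.822). Its YTHDC1 libraries were at 5.344 to 16.72 CPM (median 10.3) in Ctrl and at 5.765 to 15.55 CPM (median 8.44) in dTAG. All METTL3 dTAG libraries lay below the METTL3 Ctrl libraries, whereas the YTHDC1 arms overlapped. The responses were -2.63 (SE 0.13) and -0.08 (SE 0.11). Others were Rgs14, a regulator of G protein signalling (-2.34), the membrane protein genes Fam159b (-2.21) and Ano3 (-1.96), Apol8 (-2.03), the immunoglobulin heavy chain gene Ighg1 (-1.92), the p53 relative Trp73 (-1.61) and the Notch ligand Dll1 (-1.54). Their YTHDC1 responses ran from -0.08 to 0.22. Without METTL3 replicate 1 Trp73 left this class.

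Only 529 genes responded to YTHDC1 loss and not to METTL3 loss in this sense, 245 of them higher and 284 lower. In 438 of the 529 the interval of the METTL3 response lay within 0.5 of zero, against 6959 of all 14312 genes. A class without a called METTL3 response favours this. The signs of the METTL3 replicates matched in 111 of the 245 rises and 124 of the 284 falls. Among the 5613 genes called in neither line they matched in 2279, and like these the class has no called METTL3 response. All 14312 genes, of which 10280 matched, include genes called in the METTL3 line. The ranked examples came from 149 rises and 185 falls.

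Cebpz (ENSMUSG00000024081, chromosome 17, 78919006 to 78937066), which encodes a nucleolar protein needed for ribosome assembly, differed most. In YTHDC1 Ctrl libraries it ranged from 266.1 to 435.4 CPM with a median of 357.5, and in YTHDC1 dTAG libraries from 77.68 to 96.78 CPM with a median of 89.38. The METTL3 libraries ranged from 296.1 to 464.5 CPM (median 388.5) in Ctrl and from 266 to 417.5 CPM (median 366.4) in dTAG. The YTHDC1 dTAG libraries formed a tight cluster far below the other 18. The difference between the responses, -0.13 (SE 0.06) in the METTL3 and -2.0 (SE 0.07) in the YTHDC1 line, was 1.87 (edgeR adjusted p 6.2e-15). The small METTL3 fall, with an edgeR adjusted p of 0.0778, passed the threshold in 5 of 16 alternative fits, among them those without METTL3 replicate 1 and without YTHDC1 replicate 2.

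The remaining ranked falls were smaller. Mipol1 fell by 1.36 (SE 0.11), Cpne1, a calcium-dependent membrane binding protein, by 1.21 (SE 0.07) and Chml, a Rab escort protein, by 1.15 (SE 0.12) in the YTHDC1 line on the log2 scale. The METTL3 responses of these genes were -0.13, -0.13 and -0.02. Zfp934 (-0.81), the mitochondrial carboxykinase gene Pck2 (-0.87), the ubiquitin ligase gene Rnf157 (-0.86) and Ap1g2 (-0.97), of a vesicle coat adaptor, followed. All of these 7 genes overlap another gene in the annotation. The YTHDC1 arms of Pck2 overlapped and those of the others lay apart, which a ranking by size and equal sign in all pairs favours. How common either trait is over all genes is not given here.

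Sntb1, a syntrophin of the membrane scaffold, headed the YTHDC1-only rises. YTHDC1 libraries had lowest, median and highest levels of 2.863, 4.138 and 6.672 CPM in Ctrl and 6.376, 8.104 and 11.67 CPM in dTAG. METTL3 libraries had 4.029, 4.616 and 6.409 CPM in Ctrl and 3.127, 4.299 and 5.572 CPM in dTAG. The YTHDC1 arms touched only where the highest Ctrl library passed the lowest dTAG library. The responses were 0.96 (SE 0.12) in the YTHDC1 and -0.21 (SE 0.13) in the METTL3 line. The X-linked vesicle GTPase gene Rab39b rose by 0.95 (SE 0.10) and the oxidase Duox1 by 0.84 (SE 0.11) in the YTHDC1 line, with METTL3 responses of 0.09 and 0.04. Fbp2 (0.65) and Pfkfb1 (0.72), both enzymes of fructose phosphate metabolism, Plcxd1 (0.67), the cilia gene Hydin (0.63) and the checkpoint gene Rad9b (0.45) completed the ranking. Hydin and Rad9b kept their class in 8 of 16 alternative fits each, with METTL3 responses of -0.22 and -0.24.

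In 594 genes the responses ran in opposite directions, 329 rising and 265 falling with METTL3 loss. Slco2b1, an organic anion transporter, had the largest difference of the ranked genes, at -3.01 (edgeR adjusted p 1.9e-10). METTL3 Ctrl libraries spanned 7.315 to 29.22 CPM (median 17.69) and METTL3 dTAG libraries 1.372 to 5.298 CPM (median 2.599). The span was 4.867 to 19.88 CPM (median 12.29) for YTHDC1 Ctrl and 6.813 to 35.53 CPM (median 18.22) for YTHDC1 dTAG. The METTL3 arms lay apart and the YTHDC1 arms overlapped, although dTAG was higher in 6 of 6 YTHDC1 pairs. The vessel growth factor Angpt2 (-1.70 and 0.65) and the lipoxygenase Alox5 (-1.69 and 0.61) also fell with METTL3 and rose with YTHDC1 loss. The mitochondrial aldehyde dehydrogenase Aldh1b1 (1.83 and -0.66), Lrrn4 (1.76 and -0.51) and the tubulin folding cofactor Tbcc (1.59 and -0.41) did the reverse. The YTHDC1 side of this class was its weak side. Without YTHDC1 replicate 2 the 594 genes became 88, and none of these 6 genes kept its class.

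**Figure D2:**
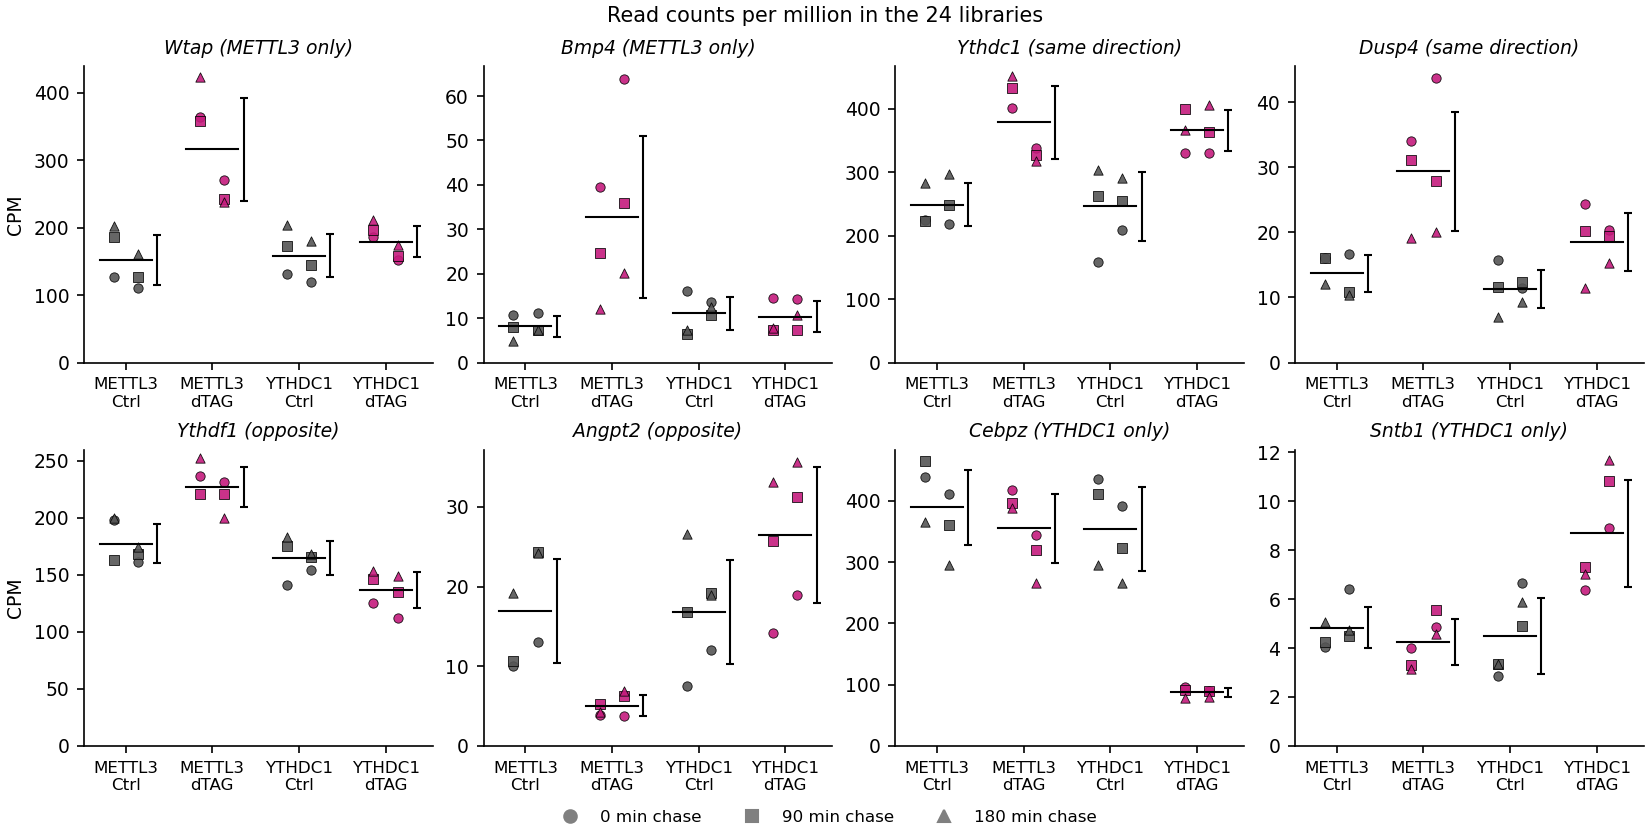
CPM (y axes, linear from 0) of 8 genes in the 24 libraries, with Ctrl in grey and dTAG in magenta, replicate 1 left and replicate 2 right of each group, and the symbol giving the chase time; horizontal lines are means and bars are SD (n = 6). Bmp4 rises in the METTL3 dTAG libraries alone. Wtap rises there too, with a smaller shift in the YTHDC1 line that did not pass the threshold. Ythdc1 and Dusp4 rise in both lines, and Ythdf1 and Angpt2 move in opposite directions. The 6 YTHDC1 dTAG libraries of Cebpz sit between 77.68 and 96.78.

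**Figure D3:**
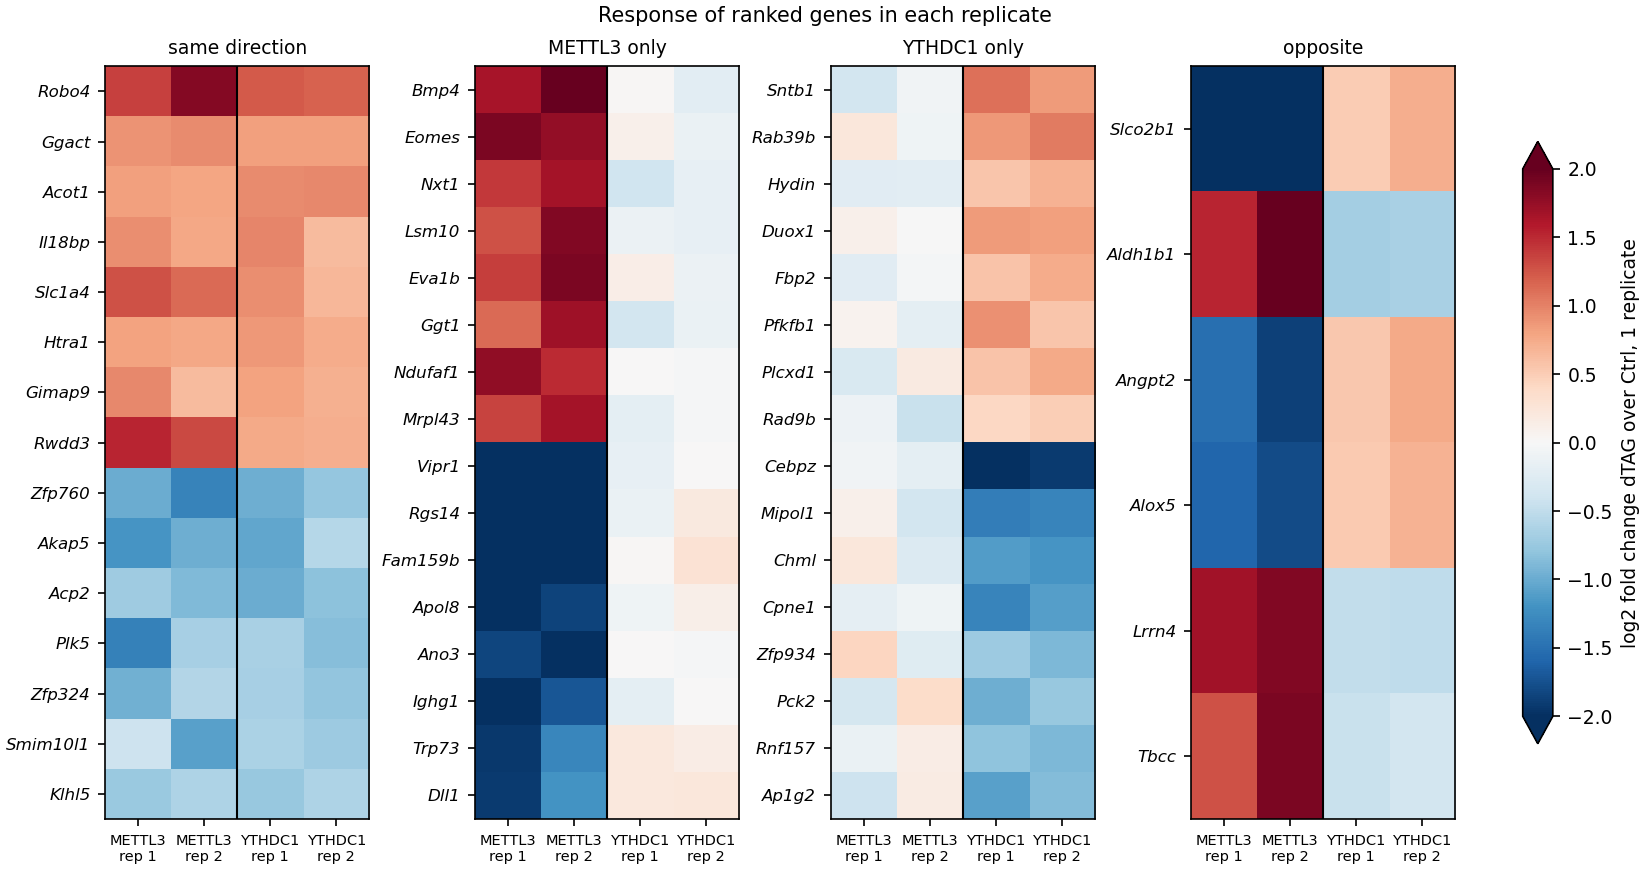
Log2 fold change of dTAG over Ctrl in each replicate of each line for the ranked genes named here, in columns by class, with red for higher and blue for lower in dTAG and colours saturating at 2 either way. Within a class the replicates of a responding line have the same colour for every gene, as the ranking required, and the other line is pale for the genes that responded in 1 line only.

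The new-to-total ratio, the share of a gene's reads assigned to RNA made in the pulse, is another readout of the same libraries. It was compared between arms within each replicate for genes with at least 100 reads per library, as a description without a test, and each value is the class median minus the median of all genes on the log2 scale. After the pulse, the METTL3-only rises lay below all genes in METTL3 replicates 1 and 2, with values of -0.22 and -0.27. Their share of new RNA was thus lower in dTAG, relative to all genes. Since their total reads rose, a lower share does not mean less new RNA. In the YTHDC1 line the METTL3-only rises were at -0.04 and -0.01. The shared rises were at -0.19 and -0.23 in the METTL3 line but only at -0.05 in both YTHDC1 replicates.

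The change of the ratio from 0 to 180 min of chase was compared in the same way. It is the log2 ratio at 180 min minus that at 0 min, so a lower ratio after the pulse raises it. The 2 measures therefore mirror each other in part and are not separate findings. For the METTL3-only rises the change was higher in dTAG, relative to all genes, in the METTL3 line (0.24 and 0.29). These sizes are close to those by which their ratio after the pulse was lower (-0.22 and -0.27). In the YTHDC1 line the change was at -0.02 and 0.02. Shared rises were at 0.19 and 0.17 in the METTL3 line and at 0.07 and 0.08 in the YTHDC1 line. Shared falls were below all genes in all 4 replicates, at -0.08 and -0.10 in the METTL3 and -0.08 and -0.11 in the YTHDC1 line. YTHDC1-only falls were at -0.11 in both YTHDC1 replicates and at 0.01 and 0.02 in the METTL3 line. Read counts and ratios come from the same reads, and a limit on mismatches during alignment can lower the count of strongly labelled RNA. The ratio is a share of reads and not an amount of labelled RNA. In METTL3 Ctrl the ratio of the METTL3-only rises fell more over the chase than that of all genes. Its median log2 changes were -0.581 and -0.585 in replicates 1 and 2, against -0.275 and -0.217 for all genes.

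Ratios of single genes are given next. The Wtap ratio after the pulse was 0.860 in Ctrl and 0.575 in dTAG of METTL3 replicate 1, and 0.923 and 0.542 in replicate 2. In the YTHDC1 line it was 0.888 and 0.836, and 0.922 and 0.923. Only the METTL3 line thus shows a lower share of new Wtap RNA in both replicates. For Ndufaf1 it fell from 0.498 to 0.224 and from 0.524 to 0.205 in the METTL3 line and was higher in dTAG of the YTHDC1 line, at 0.527 against 0.653 and 0.570 against 0.655. Cebpz went the other way in the YTHDC1 line, from 0.311 to 0.586 and from 0.343 to 0.566, so that the lower level there went with a higher share of new RNA. Its METTL3 values were 0.310 and 0.252, and 0.299 and 0.228. Ggact, of equal rise in both lines, had unequal ratios, falling from 0.553 to 0.240 and from 0.449 to 0.234 in the METTL3 line against 0.393 to 0.342 and 0.355 to 0.354 in the YTHDC1 line.

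**Figure D4:**
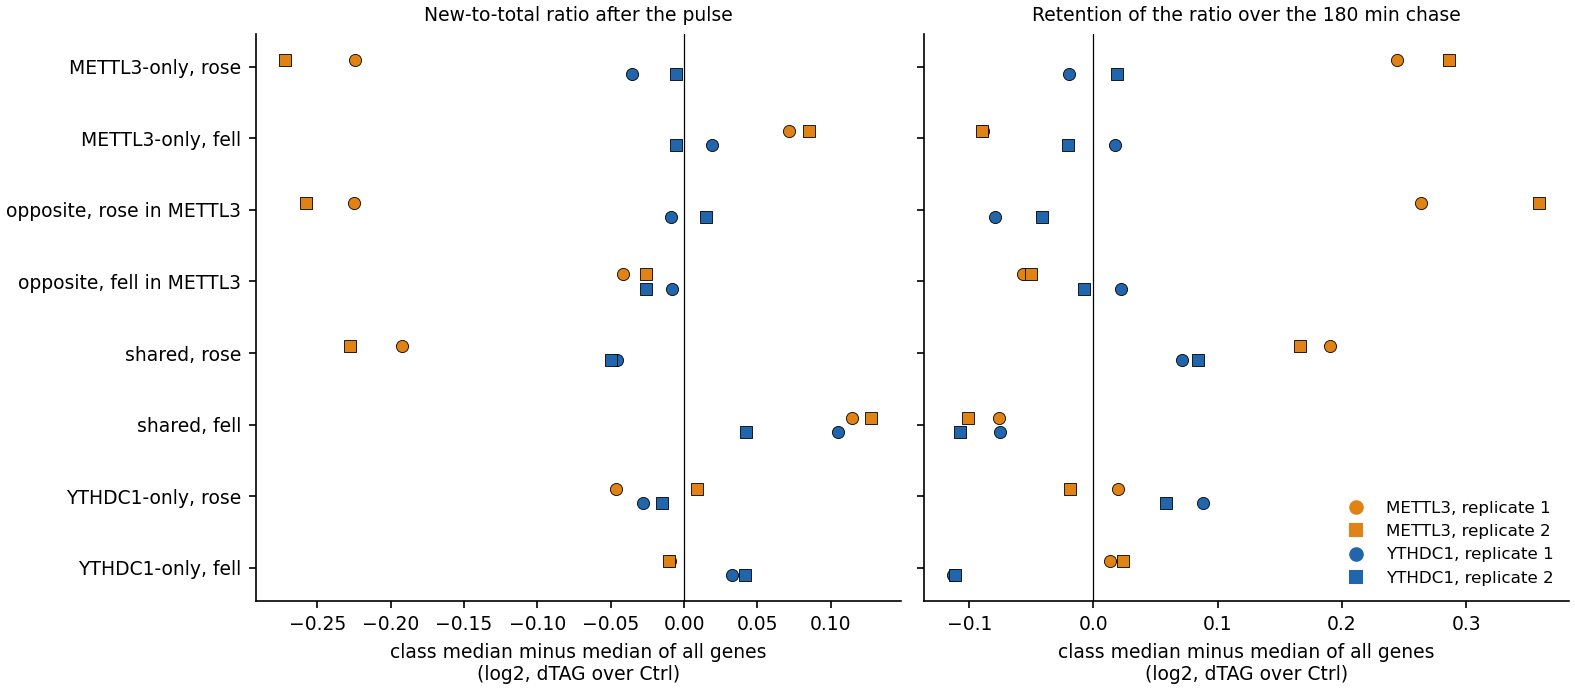
Class median minus the median of all genes, on the log2 scale of dTAG over Ctrl, for the new-to-total ratio after the pulse (left) and for its retention from 0 to 180 min of chase (right), with 1 symbol for each line and replicate. The genes that rose with METTL3 loss stand apart in the METTL3 replicates, at -0.19 to -0.27 on the left and 0.17 to 0.36 on the right. The shared and YTHDC1-only falls lie at -0.08 to -0.11 in the YTHDC1 replicates on the right. The measure on the right subtracts the 0 min ratio used on the left, so it mirrors the left in part.

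Sequence and gene structure, which the grouping did not use, differed in their shares between the classes and are given as descriptions. The letters GGACT, read on the transcript strand alone, occurred within 200 bases of the coding end in 39.4% of 13928 coding genes. The share was 45.0% in METTL3-only rises, 37.1% in METTL3-only falls and 48.5% in the opposite genes that rose with METTL3 loss. It was 39.3% in shared rises, 34.9% in shared falls, 34.5% in YTHDC1-only rises and 41.3% in YTHDC1-only falls. The median number of exons was 9 over all genes, 7 in METTL3-only rises, 11 in METTL3-only falls and 6 in opposite genes that rose with METTL3 loss. X-linked genes were 3.70% of all genes, 10.6% of YTHDC1-only rises, 6.47% of shared rises and 1.83% of METTL3-only rises.

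Gene groups were then followed through both lines, beginning with the writer and the readers. All list counts from here on are to be read against the shares of all genes tested. Of these, 27.1% rose and 27.2% fell with METTL3 loss, and 7.98% rose and 9.04% fell with YTHDC1 loss. Of 8 writer complex genes, 3 rose in the METTL3 line and none passed in the YTHDC1 line. Besides Wtap these were the scaffold Virma, at 0.62 (SE 0.06) against 0.13 with a called difference of 0.48, and Rbm15, at 0.34 against 0.20 with no called difference. Of 13 readers and erasers, 5 rose and 4 fell in the METTL3 line, and 2 rose and 4 fell in the YTHDC1 line.

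All 3 genes of the cytoplasmic YTHDF readers rose with METTL3 loss, and none rose with YTHDC1 loss. Ythdf2, which recruits deadenylation, rose by 0.67 (SE 0.07) in the METTL3 line and was at -0.17 in the YTHDC1 line, a difference of 0.84 (edgeR adjusted p 2.12e-07). Ythdf3 had 0.30 and -0.20, and left the METTL3-only class in the summed fit, without either METTL3 replicate and without YTHDC1 replicate 2. Ythdf1 rose by 0.36 (SE 0.07) with METTL3 loss and fell by 0.27 (SE 0.07) with YTHDC1 loss, though it left the opposite class in the summed fit and without either YTHDC1 replicate. The eraser Alkbh5 rose by 0.31 in the METTL3 line and stood at 0.00 in the YTHDC1 line, and the eraser Fto passed in neither (0.12 and 0.15). Hnrnpc (-0.18 and -0.24) and Igf2bp3 (-0.21 and -0.28), other proteins tied to m6A-marked RNA, fell in both lines by small amounts and left the shared class in the summed fit.

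Lists of nuclear RNA processing genes are read against the 27.1% of all genes that rose and 27.2% that fell with METTL3 loss, and the 7.98% and 9.04% with YTHDC1 loss. Of 24 genes of the nuclear exosome and its adaptors, 7 rose and 6 fell in the METTL3 line, while 1 fell in the YTHDC1 line. Exosc10, the nuclease of the nuclear exosome, fell by 0.63 (SE 0.06) in the METTL3 line and was at -0.08 in the YTHDC1 line. Of 19 cleavage and polyadenylation genes 3 rose and 7 fell in the METTL3 line, against 2 falls in the YTHDC1 line, with Clp1, a kinase of the cleavage complex, at 1.08 (SE 0.08) and -0.13. Of 17 SR splicing factors 1 rose and 1 fell, against 1 fall.

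Export factors split between the lines. Of 18 genes for mRNA export 2 rose and 10 fell in the METTL3 line, and 2 rose and 3 fell in the YTHDC1 line. The helicase Ddx39b fell in both, more with METTL3 loss (-0.87 against -0.38, edgeR adjusted p 0.000258 for the difference), but left the shared class in the summed fit and without either YTHDC1 replicate. Nxt1 rose by 1.53 in the METTL3 line only. Its X-linked relative Nxt2 rose by 0.61 (SE 0.10) in the YTHDC1 line and was at -0.04 in the METTL3 line, so each loss raised one member of the pair. Of 18 genes for H3K9 methylation and retroelement silencing 5 rose and 4 fell in the METTL3 line and 3 fell in the YTHDC1 line. There the methyltransferase gene Setdb1 rose with METTL3 loss (0.62, against 0.03) and the gene of another H3K9 methyltransferase, Ehmt2, fell with YTHDC1 loss (-0.60, against 0.08).

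Pluripotency and developmental genes moved both ways. Of 15 naive genes 6 rose and 4 fell in the METTL3 line, and 1 rose and 2 fell in the YTHDC1 line. Klf4 rose by 0.64 (SE 0.09) against 0.05 and Nanog by 0.43 (SE 0.10) against -0.26, with called differences of 0.59 and 0.69. Eras, an ES cell Ras gene on the X chromosome, rose by 2.21 (SE 0.12) against 0.25. Of 10 core pluripotency genes 1 rose and 3 fell in the METTL3 line and 3 fell in the YTHDC1 line, and of the 8 ES cell markers 2 rose and 2 fell against 2 falls. In the formative and primed list 6 of 13 genes rose in each line, with 2 falls in the METTL3 and 1 fall in the YTHDC1 line. Its shared members included Etv4 (0.46 and 0.41) and Sox3 (0.59 and 0.54), both of which left the shared class in the summed fit. Sox3 had a low level, at 0.625 to 5.92 CPM over the 24 libraries.

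Of 12 germ layer and extraembryonic genes 7 rose and none fell in the METTL3 line, while 1 rose and 1 fell in the YTHDC1 line. The mesoderm regulator T rose in both (0.72 and 0.69), the eye and neural regulator Pax6 rose by 1.11 with METTL3 loss alone (-0.44, edgeR adjusted p 0.173, in the YTHDC1 line), and the filament gene Nes rose by 0.21 and fell by 0.53. T left its class in the summed fit and without either YTHDC1 replicate, and Nes in the summed fit and without replicate 2 of either line. Levels were low for T, at 0.743 to 5.89 CPM over the 24 libraries, and for Pax6, at 0.517 to 6.46 CPM. The 11 two-cell-like genes showed the converse, with 7 falls and no rise in the YTHDC1 line and 1 rise and 3 falls in the METTL3 line. Zscan4c fell by 0.78 (SE 0.18) with YTHDC1 loss, from a median of 3.204 to 1.65 CPM, and was at -0.05 in the METTL3 line. Zfp352 fell in both (-0.54 and -0.72), but left the shared class without METTL3 replicate 2 or YTHDC1 replicate 1. Zscan4 genes are near-identical copies, so how reads were split among them is uncertain. Calls of such copies are not independent, and the count of falls in this list is limited by that. Zscan4c left its class in the summed fit.

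Signalling lists differed in how much the lines had in common. Of 20 FGF and ERK feedback genes 10 rose and 3 fell in the METTL3 line and 7 rose and none fell in the YTHDC1 line. The phosphatase Dusp4, a feedback inhibitor of ERK, had lowest, median and highest METTL3 levels of 10.43, 14.07 and 16.7 CPM in Ctrl and 19.18, 29.51 and 43.66 CPM in dTAG. Its YTHDC1 levels were 7.061, 11.53 and 15.75 CPM in Ctrl and 11.52, 19.81 and 24.28 CPM in dTAG. All METTL3 dTAG libraries were above the Ctrl libraries and the YTHDC1 arms overlapped slightly. The responses were 1.07 (SE 0.11) and 0.72 (SE 0.11). Dusp6 (0.72 and 0.56) and Spry4 (0.82 and 0.62), inhibitors of the same pathway, also rose in both, but Dusp6 left the shared class without YTHDC1 replicate 2 and Spry4 without either YTHDC1 replicate. The immediate early genes of this list behaved otherwise, since Egr1 fell with METTL3 loss alone (-1.47, against 0.27) and Fos (-0.56 and 0.37) and Fosl1 (-1.10 and 0.62) moved in opposite directions. Fos and Fosl1 left the opposite class when either YTHDC1 replicate was left out. Egr1 had a low level, at 0.805 to 12.73 CPM over the 24 libraries.

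Of 17 BMP and Nodal genes and targets 9 rose and 3 fell in the METTL3 line and 1 rose in the YTHDC1 line. With Bmp4 rose its targets Id4 (0.98, against 0.19), Id3 (0.91, against 0.09) and Id1 (0.50, against 0.03), although the class of Id1 held in 5 of 16 alternative fits and that of Id3 in 10, lost among others without METTL3 replicate 2 and without either YTHDC1 replicate. Nodal was higher with YTHDC1 loss (0.47, against -0.17), and its inhibitor Lefty1 fell with METTL3 loss (-0.995, against 0.204). Of 18 p53 targets 1 rose and 9 fell in the METTL3 line and 1 rose in the YTHDC1 line. Eda2r fell by 0.57 (SE 0.08) and the cell cycle inhibitor Cdkn1a by 0.50 (SE 0.10) with METTL3 loss, whereas Perp rose by 0.39 (SE 0.07) with YTHDC1 loss. Of 19 integrated stress response genes 5 rose and 4 fell against 1 fall, and of 8 feeder markers tested 2 rose and 1 fell against none. The edgeR test thus called no feeder marker in the YTHDC1 line. Of all genes 17% were called there, and 8 markers are too few to tell their share from that.

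Of 7 nuclear noncoding RNAs 2 rose and 2 fell in the METTL3 line and 1 fell in the YTHDC1 line. Meg3, an imprinted lincRNA, fell in both lines and more with METTL3 loss (-1.05 against -0.54, edgeR adjusted p 0.00505 for the difference). Xist, which coats and silences the X chromosome, was METTL3-only here, with 0.53 (SE 0.13) against -0.27 (SE 0.13). Xist left that class without METTL3 replicate 1 and with a block for each pair of Ctrl and dTAG libraries. These RNAs overlap other annotated genes.

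**Figure D5:**
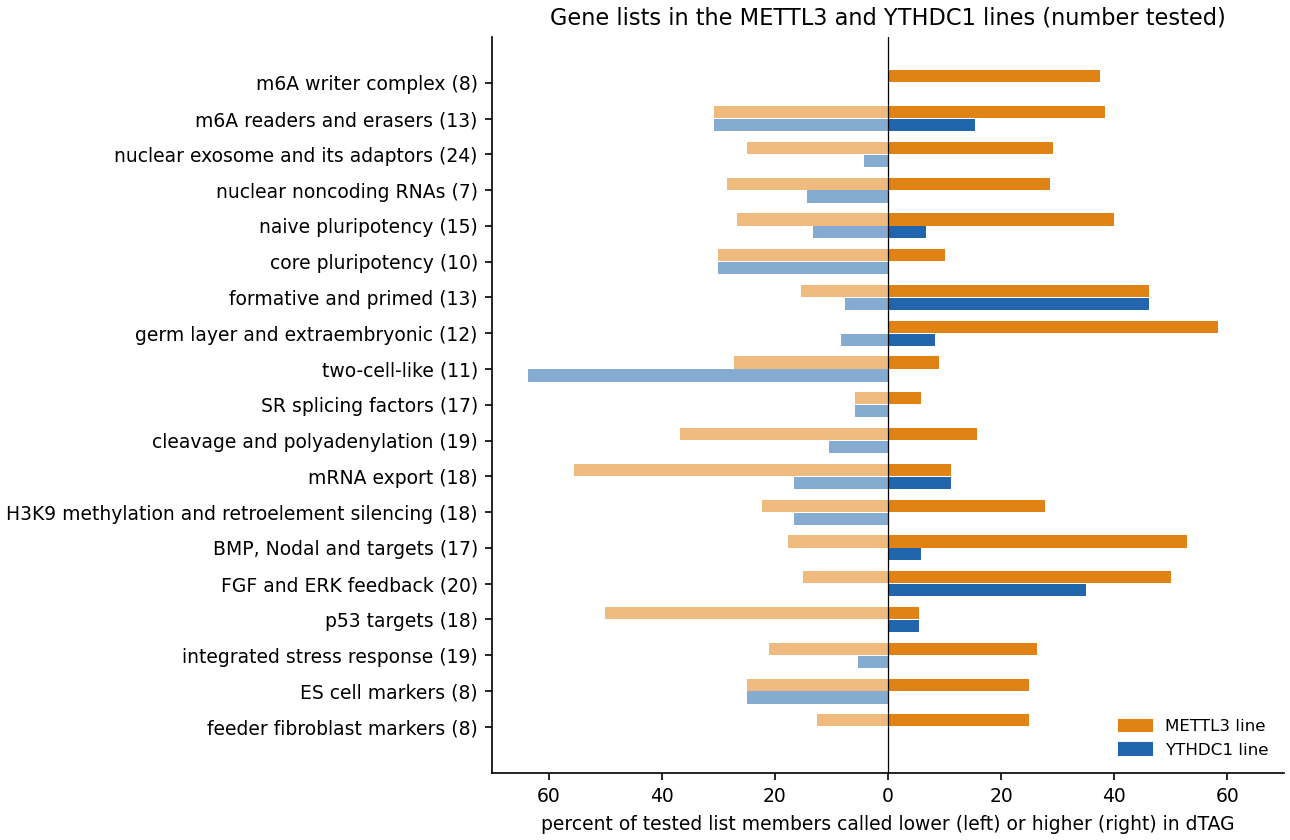
Percent of the tested members of each list that were called lower (bars to the left, pale) or higher (bars to the right) in dTAG, for the METTL3 line (orange) and the YTHDC1 line (blue), with the number tested in brackets. Backgrounds are 27.1% and 27.2% with METTL3 loss and 7.98% and 9.04% with YTHDC1 loss. The FGF and ERK feedback and the formative lists have long blue bars to the right. The two-cell-like list, which holds near-identical copies, has the longest blue bar to the left.

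The third line of the series, with ZCCHC8 degraded, was also treated with dTAG-13 and gives values beside the shared genes. Over all genes 13.1% rose and 21.3% fell there. Of 432 shared rises tested, 94 rose (21.8%) and 80 fell (18.5%) in the ZCCHC8 line, and of 485 shared falls 93 rose (19.2%) and 133 fell (27.4%). Ythdc1 was at -0.03 (edgeR adjusted p 0.81) in that line and Acp2 at 0.03, whereas Ggact rose by 0.35. Acot1 and Htra1, which rose in both other lines, fell by 0.27 and 0.20. Dusp4 (1.08), Dusp6 (0.49) and Spry4 (0.94) rose there as well, so these inhibitors were higher with dTAG-13 in all 3 lines. For Dusp4, Dusp6 and Spry4 an effect of the compound cannot be told apart from one of the losses. Other named members of that list went both ways in the ZCCHC8 line. Etv4 rose by 0.37 and Fosl1 fell by 0.81, while Egr1 (-0.48) and Fos (-0.20) did not pass the threshold.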

How the data were processed

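Read counts and new-to-total ratios came from SLAM-seq of total RNA (TruSeq stranded kit). The authors removed ribosomal RNA reads, aligned the rest to mm10 with STAR (version 2.5.2b in the submitters' processing notes), kept unique end-to-end alignments and ran GRAND-SLAM on the 6 libraries of each line and replicate. The GRAND-SLAM version and the use of strand are not given in the sources used here. A kit that marks strand counted without it would mix overlapping genes. The deposited count columns hold whole, unnormalized reads per gene, and the deposited ratio is a fraction from 0 to 1. Of the series' per-sample columns, 372 were not used. The 4 tables listed 22492 genes, of which 18788 were in all.

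Counts were fitted over 24 libraries with edgeR 4.0.16 (R 4.3.3, limma 3.58.1): TMM factors, filterByExpr by line and arm (14312 genes kept), robust quasi-likelihood F tests, terms for line and replicate (4 levels), chase time as a factor and arm within line, and Benjamini-Hochberg adjustment over all genes with a threshold of 0.05. The SE is the log2 fold change divided by the square root of F, and CPM are scaled with TMM. Replicate numbers come from the labels, wells of a replicate came from one batch of cells per the study's methods, and same-numbered libraries deviated together in all 6 pairs of arms (correlations 0.597 to 0.759). Totals of 9547507 to 18652000 reads limit genes of low level most. Ratios were used where a gene had at least 100 reads in each library and a ratio of at least 0.02. The tests were tried on simulated counts. Each simulated library was drawn independently around the fitted means, so dependence between the chase libraries of a replicate and arm was not covered. Alternatives included no block, a block for each pair, summed chase libraries, other size factors, no filter, DESeq2 1.42.0, all 36 libraries, leaving out each replicate and leaving out each chase time. Tables and figures were made with Python 3.11.15, numpy 2.4.6, pandas 2.3.3 and matplotlib 3.10.9.

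The comparison and the 19 gene lists were chosen with earlier results of these data known, and the lists hold 298 entries, of which 290 matched. Ranked genes had a mean of at least 5 CPM, no Gm-number or Rik symbol and the same sign in all 6 pairs of each responding line. Ranked were the 8 shared rises and 8 falls by the smaller change, the 8 one-line genes per line and direction by the difference, with the other line's 95% interval within 0.5 of zero, and the 6 opposite genes by the difference. Tested members of the lists could be named too, without these conditions, and some of them had low levels. A few genes that these rules select are not reported here.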

Additional observations from a re-analysis of the deposited data

Results flagged for a closer look

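The dTAG response differed between the METTL3 and YTHDC1 lines in 5694 genes by the edgeR test of the difference itself. The values below are that difference, the METTL3 response minus the YTHDC1 response on the log2 scale, for the genes named above whose difference passed.

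Among genes that rose with METTL3 loss only it was 2.00 for Bmp4, 1.86 for Eomes, 1.81 for Nxt1, 1.69 for Lsm10, 1.69 for Eva1b, 1.68 for Ggt1, 1.65 for Ndufaf1 and 1.62 for Mrpl43. List members of this kind were Eras (1.96), Pax6 (1.55), Clp1 (1.20), Wtap (0.87), Ythdf2 (0.84), Id3 (0.82), Xist (0.81), Id4 (0.79), Nanog (0.69), Klf4 (0.59), Setdb1 (0.59), Ythdf3 (0.50), Virma (0.48), Id1 (0.47) and Alkbh5 (0.31). Among genes that fell with METTL3 loss only it was -2.55 for Vipr1, -2.37 for Rgs14, -2.36 for Fam159b, -2.04 for Apol8, -1.95 for Ano3, -1.83 for Ighg1, -1.79 for Trp73 and -1.76 for Dll1. List members were Egr1 (-1.73), Lefty1 (-1.20), Eda2r (-0.74), Vim (-0.70), Cdkn1a (-0.63) and Exosc10 (-0.56).

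For YTHDC1-only rises the difference was -1.17 for Sntb1, -0.86 for Rab39b, -0.84 for Hydin, -0.80 for Duox1, -0.79 for Fbp2, -0.78 for Pfkfb1, -0.71 for Plcxd1 and -0.70 for Rad9b, with Nxt2 (-0.65), Nodal (-0.64) and Perp (-0.46) from the lists. For YTHDC1-only falls it was 1.87 for Cebpz, 1.23 for Mipol1, 1.13 for Chml, 1.08 for Cpne1, 0.93 for Zfp934, 0.89 for Pck2, 0.88 for Rnf157 and 0.87 for Ap1g2, with Zscan4c (0.73) and Ehmt2 (0.67) from the lists.

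Opposite responses gave -3.01 for Slco2b1, 2.49 for Aldh1b1, -2.35 for Angpt2, -2.30 for Alox5, 2.27 for Lrrn4 and 1.99 for Tbcc, and -1.72 for Fosl1, -0.93 for Fos, 0.74 for Nes and 0.63 for Ythdf1. Shared responses of unequal size gave 0.68 for Rwdd3, 0.42 for Slc1a4, -0.51 for Meg3 and -0.49 for Ddx39b.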

How the results depend on the processing

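Counts are given below in the order METTL3 response, YTHDC1 response, difference, shared, opposite, METTL3-only and YTHDC1-only, with 7775, 2436, 5694, 918, 594, 4041 and 529 as reported. They stayed within 1.5 times of these with a block for each pair, chase time within line, other size factors, no filter, DESeq2 and all 36 libraries. Without the replicate block, although same-numbered libraries were paired by their deviations, they were 4503, 635, 2504, 227, 114, 2011 and 155. With chase libraries summed they were 6168, 675, 3365, 256, 101, 2818 and 175. With a size of at least 0.5 also required they were 3450, 824, 3407, 222, 124, 2189 and 257. Without the 0 min libraries the opposite count was 376. Without the 90 min libraries the YTHDC1, difference, shared, opposite and YTHDC1-only counts were 931, 3577, 324, 148 and 241, and without the 180 min libraries the YTHDC1, shared, opposite and YTHDC1-only counts were 1251, 493, 196 and 290. These fits have fewer libraries.

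Leaving out 1 replicate of 1 line gave 6637 to 7736 METTL3 responses, 528 to 4027 YTHDC1 responses, 3429 to 6168 differences, 232 to 1275 shared, 88 to 931 opposite, 2942 to 3676 METTL3-only and 146 to 856 YTHDC1-only genes. The highest counts for YTHDC1 came without METTL3 replicate 1 and the lowest without YTHDC1 replicate 2; the cause was not tested. Of the 54 ranked genes, 43 kept their class without the block, 50 in the summed fit, 49 without METTL3 replicate 1, 51 without METTL3 replicate 2, 49 without YTHDC1 replicate 1 and 42 without YTHDC1 replicate 2. No named gene's response or difference changed sign past a threshold. Beside those given with their values, Mipol1, Pck2, Virma, Rbm15, Ythdf2, Hnrnpc, Fto, Nanog, Eras, Zscan4c, Eda2r and Ehmt2 changed class without METTL3 replicate 1, and Nxt1, Zfp934, Ap1g2, Igf2bp3, Sox3, Nodal and Ehmt2 without METTL3 replicate 2. Pfkfb1, Aldh1b1, Lrrn4, Tbcc, Igf2bp3, Hnrnpc, Sox3, Zscan4c and Nxt2 did so without YTHDC1 replicate 1, and Plcxd1, Rnf157, Igf2bp3, Alkbh5, Meg3, Etv4, Sox3, Nodal and Perp without YTHDC1 replicate 2. Rad9b did so without METTL3 replicate 1 or either YTHDC1 replicate. With a block for each pair Xist and Hydin changed class. Depth limits genes of low level most, and the median of all genes stayed within -0.04 to 0.01 on the log2 scale in every fit.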
